A study of Mus musculus with 24 samples.

Results

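The lysyl oxidase family, Lox and Loxl1 to Loxl4, was followed by bulk RNA-seq in mouse osteoblast cultures. Osteoblasts are the cells that deposit bone matrix. Its members were the rows of the deposited count table whose Ensembl identifiers map to these symbols, 5 of 54232 rows, and all 5 passed the filter on low counts. Per the labels, the cells came from newborn calvariae (skull bones) that were pooled before culture, from mice of a high bone mass line (HBM) or from wild-type mice (WT), and polyadenylated RNA was taken at days 0, 10, 15 and 21 of osteoblast differentiation. Each genotype had 3 independent pooled cultures, numbered as batches 18, 19 and 21, which gave 24 libraries in 8 groups of 3. The labels do not name the HBM allele, its zygosity, or the number and sex of the animals in a pool. The title of the series is about removal of the procollagen C-propeptide.

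Lysyl oxidases are secreted copper-dependent amine oxidases. They oxidise lysine and hydroxylysine side chains of collagen and elastin, and the aldehydes that result condense into the covalent cross-links that give bone its tensile strength. The family has a pair of branches. Lox and Loxl1 are made as proenzymes with a propeptide, and that of Lox is cleaved by Bmp1 and its relatives, the same proteases that remove the C-propeptide of procollagen I. Loxl2, Loxl3 and Loxl4 instead carry scavenger receptor cysteine-rich domains in front of the catalytic domain.

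The members share a short coding stretch at the histidine-rich copper-binding site of the catalytic domain, shown here as a part that they have in common. Whether reads of this stretch can be assigned to a single member was not tested. The 33 bases are given 5′ to 3′ on the coding strand of mm10, with capitals for the 20 bases shared by the 4 members printed. In each gene the stretch crosses an exon junction, so the coordinates named after it include an intron.
Loxl1: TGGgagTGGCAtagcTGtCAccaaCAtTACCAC
Loxl2: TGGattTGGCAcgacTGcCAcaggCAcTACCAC
Loxl3: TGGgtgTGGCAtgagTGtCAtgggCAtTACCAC
Loxl4: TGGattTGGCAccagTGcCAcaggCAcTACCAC
The stretch lies at chr9:58293720-58294381 in Loxl1 (minus strand, exons 3 and 4), chr14:69682316-69689037 in Loxl2 (plus strand, exons 10 and 11), chr6:83049995-83050125 in Loxl3 (plus strand, exons 10 and 11) and chr19:42598807-42599899 in Loxl4 (minus strand, exons 11 and 12). Loxl2 and Loxl4 matched at 31 of the 33 bases, and Lox and Loxl1 at 32, whereas pairs from different branches matched at 21 to 25. Loxl3 matched Loxl2 and Loxl4 at 25 bases each. Across whole transcripts, the longest identical run between any pair of members was 32 bases, between Lox and Loxl1.

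The genes lie apart in the genome. In mm10 with the GENCODE M21 annotation, Lox (ENSMUSG00000024529) occupies chr18:52516067-52529867, Loxl1 (ENSMUSG00000032334) chr9:58287738-58313186, Loxl2 (ENSMUSG00000034205) chr14:69609068-69695834, Loxl3 (ENSMUSG00000000693) chr6:83034173-83052562 and Loxl4 (ENSMUSG00000025185) chr19:42593982-42612813. Htra2, a protease gene on the opposite strand, shares 535 exonic bases with Loxl3, or 11.6% of the exonic length of Loxl3. Htra2 had 43328 counts over all libraries and Loxl3 235750. The strand setting of the authors' counting is not given in the sources used here, so reads of this overlap cannot be told apart. An antisense transcript at Loxl2, Gm27177, shares 301 exonic bases with it and had 6 counts, against 383706 for Loxl2.

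Library totals ran from 28039095 to 46987734 counts. Levels are given as CPM, counts scaled to a common library size. Xist, which marks female cells, did not exceed 0.0328 CPM in batch 21, and in batch 19 it stood at 177 to 246 CPM in HBM and 18.0 to 41.7 CPM in WT. The day 0 libraries of batch 19 held the most Col2a1, the collagen of cartilage, with 8774 CPM in HBM and 15862 CPM in WT, against at most 3790.1 CPM in the other libraries. The osteoblast marker list (Runx2, Sp7, Alpl, Bglap, Ibsp, Col1a1 and Dmp1) summed to 43703 to 116101 CPM in HBM and 22711 to 59298 CPM in WT at days 10 to 21. At day 0 it summed to 22290 to 34798 CPM in HBM and 18160 to 33053 CPM in WT. Nearly all of the sum was Col1a1 on every day. At day 10 Col1a1 averaged 68074 CPM in HBM and 41150 CPM in WT, of mean sums of 70220 and 41878 CPM. In bulk RNA, fewer cells of a type and less RNA per cell cannot be told apart.

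Lox was the most abundant member. Per kilobase of exon, the scale on which genes can be compared, its level was 314 ± 79.1 CPM per kb over the 24 libraries (SD), and it ranked first in 24 of 24. Loxl2 followed at 79.1 ± 50.6 CPM per kb, Loxl1 at 75.7 ± 30.2, Loxl3 at 57.2 ± 31.9 and Loxl4 at 16.0 ± 13.6. With all days pooled, Loxl1 and Loxl2 did not differ beyond their spread: Loxl1 ranked next after Lox in 14 libraries and Loxl2 in 10. Their order changed with day. At day 0 Loxl2 averaged 160 CPM per kb in HBM and 151 in WT, and Loxl1 107 and 114. At day 10 Loxl2 averaged 59.3 in HBM and 49.4 in WT, and Loxl1 71.6 and 69.5. This order was not tested. Loxl4 ranked last in 22 libraries. In the HBM day 15 library of batch 19 it reached 54.7 CPM per kb, its highest level, and passed both Loxl1 (50.5) and Loxl3 (42.0).

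**Figure D1:**
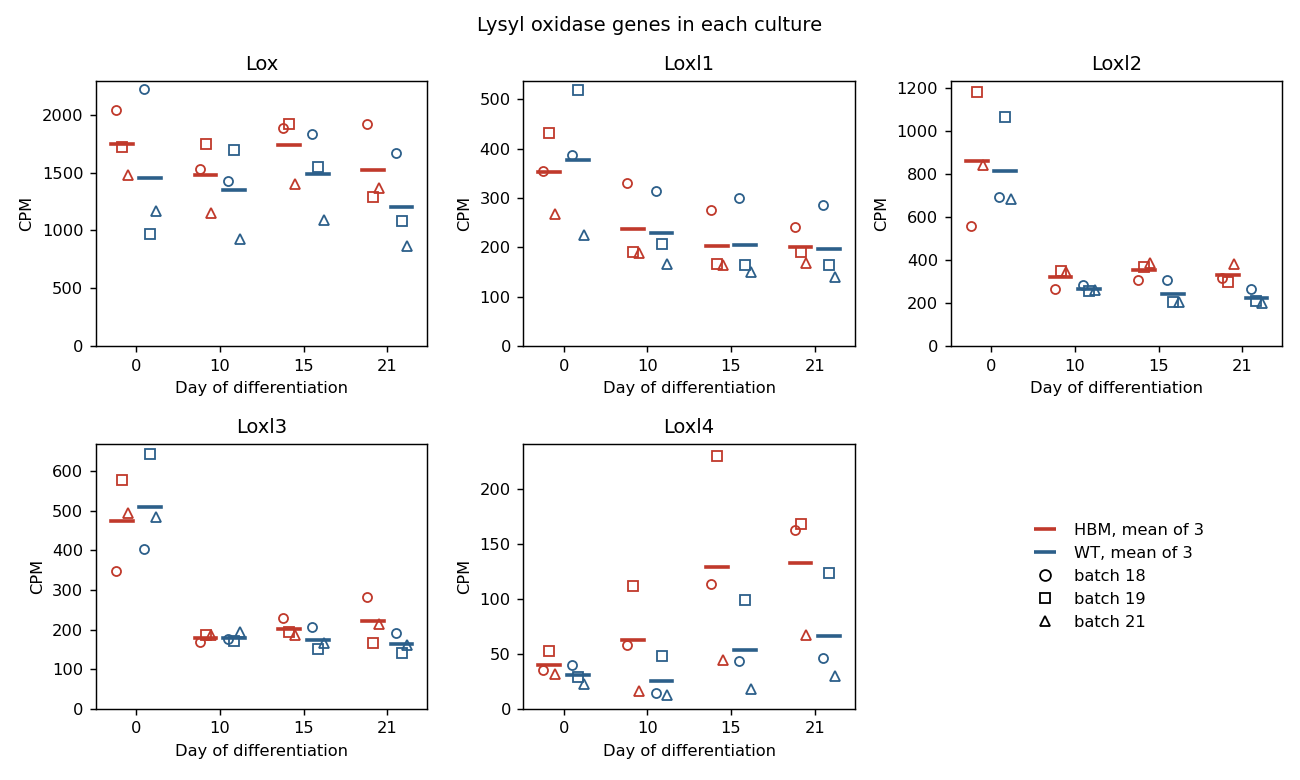
Level of each lysyl oxidase gene in CPM (y axis, from 0, scaled per gene) against day of differentiation. Points are single libraries, with HBM in red left of WT in blue and a symbol per batch, and bars are means of 3. Loxl2 and Loxl3 stand high at day 0 in both genotypes, while Loxl4 is higher at days 15 and 21 than at day 10 in every culture.

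The mean makeup of lysyl oxidase mRNA differed between day 0 and the later days, which was not tested. Over single libraries of both genotypes the share of Lox was 28.8% to 59.1% at day 0 and 57.3% to 69.3% later. In batch 18 it was 59.1% at day 0 and 61.7% at day 10 in HBM, and 57.6% and 61.2% in WT. In HBM cultures Lox gave 49.4% ± 8.64 of the family's summed CPM per kb at day 0, 62.3% ± 3.36 at day 10, 64.2% ± 1.11 at day 15 and 61.0% ± 2.44 at day 21 (SD, n = 3). In WT cultures the shares of Lox were 43.6% ± 14.4, 62.6% ± 6.10, 66.5% ± 2.46 and 61.7% ± 2.82 on the same days. The share of Loxl2 was 21.3% ± 6.08 in HBM and 22.3% ± 6.09 in WT at day 0, and 9.60% to 12.3% on average at the later days. Loxl4 had the smallest mean share on each day in both genotypes, at 1.26% in HBM and 1.04% in WT at day 0 and at 6.06% ± 2.66 in HBM and 4.06% ± 3.28 in WT at day 21. At day 0 in WT, Lox gave 28.8% in the batch 19 library with high Col2a1, and 57.6% and 44.4% in batches 18 and 21.

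**Figure D2:**
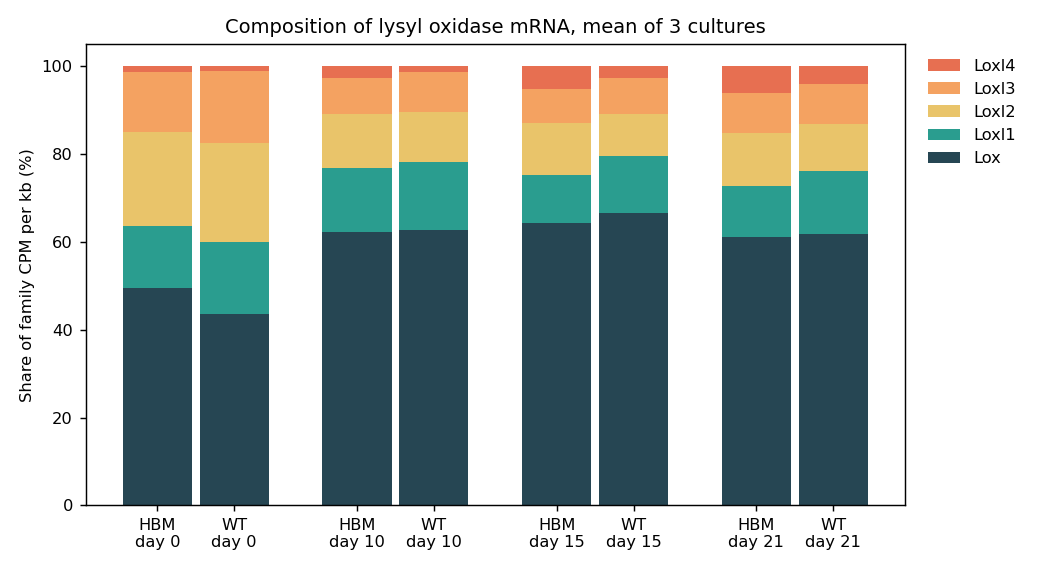
Share of each member in the summed level of the 5 lysyl oxidase genes (y axis, percent of CPM per kb, mean of 3 cultures) for HBM and WT at each day. Loxl2 and Loxl3 take a larger part of the bars at day 0 than later, and Loxl4 grows from day 10 to day 21.

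The clearest change with time was the loss of Loxl2 and Loxl3 transcripts between day 0 and day 10. Loxl2 is the member best known from collagen IV of basement membranes, and Loxl3 from cartilage and palate collagen. Of the 5 members, 2 were lower and 0 higher at day 10 than at day 0 in HBM cultures, by edgeR's quasi-likelihood test at a Benjamini-Hochberg adjusted p under 0.05, where 26.5% of all 16592 genes tested were called and 12.4% were lower. The same 2 were lower and 0 higher in WT cultures, where 26.1% of genes were called and 14% were lower. The median log2 change over the 5 members was -0.57 in HBM and -0.72 in WT, against 0.00 and -0.02 over all genes.

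Loxl2 stood at 267, 349 and 346 CPM at day 10 in HBM cultures of batches 18, 19 and 21, against 561, 1186 and 845 CPM at day 0. In WT cultures it stood at 284, 255 and 262 CPM at day 10, against 697, 1069 and 684 CPM at day 0. Every day 10 library lay below every day 0 library of its genotype, as it did for 19.6% of all genes in HBM and 16.3% in WT, and the day 10 libraries were also closer to one another. The log2 change was -1.43 ± 0.24 (SE) in HBM with an adjusted p of 0.000425, and -1.61 ± 0.24 in WT with an adjusted p of 0.000176. These are falls to 0.371 and 0.327 of the day 0 level.

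Loxl3 moved by almost the same factor. It stood at 168, 186 and 186 CPM at day 10 in HBM cultures, against 347, 579 and 494 CPM at day 0. In WT cultures it stood at 175, 170.1 and 194 CPM at day 10, against 404, 644 and 483 CPM at day 0. Again no day 10 library reached the lowest day 0 library. The log2 change was -1.40 ± 0.21 in HBM (adjusted p = 0.000209) and -1.50 ± 0.21 in WT (adjusted p = 0.000118).

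Both genes were highest in the day 0 libraries of batch 19, the ones with high Col2a1. When the HBM day 0 library of batch 19 was left out, the HBM log2 change was -1.13 for Loxl2 (adjusted p = 0.00294) and -1.22 for Loxl3 (adjusted p = 0.00144). When the WT day 0 library of batch 19 was left out, the WT log2 change was -1.37 for Loxl2 (adjusted p = 0.000731) and -1.30 for Loxl3 (adjusted p = 0.000465). After leaving out batch 19 altogether, each of the 4 changes was still past the threshold. The chondrocyte marker list was Col2a1, Acan, Sox9, Comp, Matn1, Matn3, Col9a1 and Col10a1. At day 10 it summed to 728 to 1589 CPM in HBM and 966 to 4152 CPM in WT. At day 0 it summed to 860 to 9010 CPM in HBM and 1339 to 16554 CPM in WT. Col2a1 gave most of these sums, with a day 0 mean of 3734 CPM in HBM and 6951 CPM in WT. The median log2 change of the 8 markers was 0.73 in HBM and 0.46 in WT, so the lower sums do not describe the whole list. Adipocyte markers summed to 270.0 to 594 CPM in HBM and 234 to 425 CPM in WT at day 10, against 20.0 to 36.4 CPM in HBM and 21.3 to 49.8 CPM in WT at day 0, when up to 3 of the 7 were at 0. Lpl gave most of the day 10 sums, with 270 CPM in HBM and 212 CPM in WT of mean sums of 382 and 299 CPM. Macrophage and osteoclast markers summed to 866 to 2651 CPM in HBM and 1016 to 2376 CPM in WT at day 10, against 153 to 426 CPM in HBM and 171 to 475 CPM in WT at day 0. The part of these cells in the fall of Loxl2 and Loxl3 was not tested.

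After day 10 neither Loxl2 nor Loxl3 changed beyond the spread between cultures. Loxl2 averaged 321 ± 46.7, 353 ± 41.8 and 333 ± 43.4 CPM in HBM at days 10, 15 and 21, and 267 ± 15.4, 241 ± 58.6 and 226 ± 33.2 CPM in WT. Loxl3 averaged 179.9 ± 10.6, 203 ± 23.1 and 221 ± 57.2 CPM in HBM, and 179.8 ± 12.7, 174 ± 29.1 and 164 ± 26.3 CPM in WT. Between day 21 and day 10, 0 of 5 members passed the threshold in either genotype, with 0% of all genes called. At an unadjusted p under 0.05 there were 534 genes in HBM and 705 in WT. DESeq2 called 0 members, and 3 genes (0.00962%) in HBM and 18 (0.0943%) in WT.

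No difference in the fall of Loxl2 and Loxl3 between the genotypes was detected. The difference between the changes, HBM minus WT, was 0.18 ± 0.33 for Loxl2 and 0.11 ± 0.29 for Loxl3 on the log2 scale (edgeR, adjusted p = 1 for both), where 0 members and 0% of genes were called and 533 genes had an unadjusted p under 0.05. DESeq2 also called 0 genes. Across the 24 libraries Loxl2 and Loxl3 had a Pearson r of 0.95 in log2 CPM, and 0.69 after the mean of each group was taken out. These points share library, depth and culture. The next highest r between members was 0.70, for Loxl1 and Loxl3.

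Loxl1, which is best known for elastic fibres, fell less. It stood at 329.9, 189.7 and 189 CPM at day 10 in HBM cultures, against 356, 432 and 267 CPM at day 0. In WT cultures it stood at 315, 206 and 166 CPM at day 10, against 386, 518 and 226 CPM at day 0. Day 10 was lower in 6 of 6 cultures, but the groups overlapped, with batch 18 the highest on every later day. The log2 change was -0.57 ± 0.37 in HBM (adjusted p = 0.262) and -0.72 ± 0.37 in WT (adjusted p = 0.157). With the culture as a block it was -0.62 ± 0.22 in HBM (adjusted p = 0.0399) and -0.74 ± 0.22 in WT (adjusted p = 0.0171), so the call depended on the block, under which 38.2% of genes were called in HBM (20.5% higher, 17.7% lower) and 38.4% in WT (19.6% higher, 18.8% lower). Within batch 19 the difference was -1.19 in HBM and -1.33 in WT, while in the other 4 cultures it was between -0.50 and -0.11.

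Lox, the main enzyme of bone collagen cross-linking, did not pass the test between any of the days compared. In HBM cultures of batches 18, 19 and 21 it stood at 2038, 1719 and 1483 CPM at day 0, 1534, 1743 and 1149.9 at day 10, 1888, 1919 and 1400.3 at day 15, and 1924, 1286 and 1369 at day 21. In WT cultures it stood at 2224, 969.8 and 1165 CPM at day 0, 1429, 1699 and 922 at day 10, 1835, 1552 and 1087 at day 15, and 1668, 1082 and 867 at day 21. The groups of all 4 days overlapped in each genotype. The log2 change from day 0 to day 10 was -0.24 ± 0.32 in HBM (adjusted p = 0.602) and -0.11 ± 0.32 in WT (adjusted p = 0.83).

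Loxl4 followed another course. It did not move one way between day 0 and day 10, where it was higher in 3 cultures (both of batch 19 and HBM batch 18) and lower in 3. It stood at 58.4, 112 and 16.2 CPM at day 10, 113, 230.3 and 44.1 CPM at day 15 and 163, 168 and 67.2 CPM at day 21 in HBM cultures of batches 18, 19 and 21. In WT cultures it stood at 14.7, 48.2 and 12.3 CPM at day 10, 43.1, 99.0 and 17.7 CPM at day 15 and 45.8, 124 and 29.5 CPM at day 21. Each culture had more Loxl4 at day 15 and at day 21 than at day 10, 6 of 6 on both counts, yet the batches spread so widely that the days overlapped. The log2 change between day 21 and day 10 was 1.09 ± 0.75 in HBM (adjusted p = 1) and 1.41 ± 0.76 in WT (adjusted p = 0.999). With the culture as a block it was 1.33 ± 0.40 in HBM (adjusted p = 0.268) and 1.40 ± 0.40 in WT (adjusted p = 0.137), still short of the threshold, where 0.0964% of genes were called in HBM and 0.542% in WT. At day 0 Loxl4 was at 35.7, 52.4 and 32.1 CPM in HBM and 39.96, 29.1 and 22.2 CPM in WT.

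Loxl4 was the only member with an entry among the RefSeq promoters used here (1 of 5 matched), and its promoter is printed because Loxl4 had the widest range of the family in fold terms, from 12.3 to 230.3 CPM. The sequence runs 5′ to 3′ on the minus strand at chr19:42612757-42613056 of GRCm38.p6, from 250 bases before to 50 bases after the start of the gene, with motif matches in capitals.
Loxl4: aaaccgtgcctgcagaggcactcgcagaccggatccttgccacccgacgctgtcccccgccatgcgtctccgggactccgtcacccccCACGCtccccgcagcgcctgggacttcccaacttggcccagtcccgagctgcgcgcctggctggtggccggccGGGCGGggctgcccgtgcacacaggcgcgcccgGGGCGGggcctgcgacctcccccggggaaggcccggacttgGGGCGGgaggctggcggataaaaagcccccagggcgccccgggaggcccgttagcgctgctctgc
A search of both strands found 3 matches of the GC box GGGCGG, a motif of Sp factors, which 35.7% of the 32851 promoters of the same length hold, and 1 match of the hypoxia core GCGTG on the other strand, which 32.4% hold. The other hypoxia core ACGTG (19.6% of promoters), the Runx core TGTGGT (16.8%), the AP-1 motif TGANTCA (7.81%) and the TATA box TATAAA (13.6%) had 0 matches in this window. None of the motifs searched overlapped another in their matches here.

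Between the genotypes, Loxl4 and Lox were most often higher in HBM. HBM exceeded WT in 11 of 12 pairs of libraries of the same batch and day for Lox and for Loxl4, in 9 for Loxl2, 8 for Loxl3 and 7 for Loxl1. The pairs repeat the same batches from day to day, so they are not 12 independent replicates. These counts were not tested, and the share of all genes that reach 11 of 12 pairs was not examined. On single days 0 of 5 members passed the threshold without a block, with 0% of all genes called on each day and 699, 478, 346 and 352 genes at an unadjusted p under 0.05 on days 0, 10, 15 and 21. DESeq2 called 0 genes on each day. With a batch term for each day, the paired fit, 0 members passed either, with 0.121%, 1.29%, 0.307% and 0.247% of genes called. The median log2 difference of the 5 members, HBM over WT, was 0.08, 0.13, 0.22 and 0.43 on these days, against -0.04, 0.00, -0.01 and -0.01 over all genes.

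**Figure D3:**
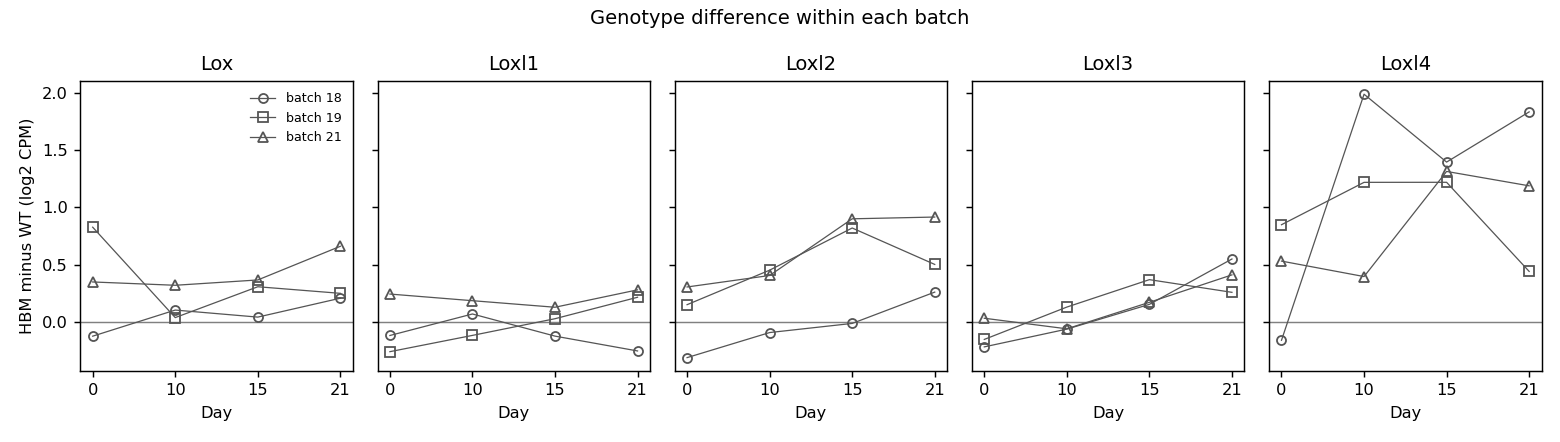
Difference between HBM and WT within each batch (y axis, HBM minus WT in log2 CPM, the same scale in all panels) against day, with a symbol per batch. Loxl4 lies above 0 in 11 of 12 pairs and reaches the largest differences, and Loxl1 scatters around 0.

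In the paired fit Loxl4 had the largest log2 difference of the family on each day. The values already given for days 10, 15 and 21 put each HBM library above the WT library of its batch on all 3 days, although the groups overlap, with the WT culture of batch 19 above the HBM culture of batch 21. The paired fit gave log2 differences of 0.40 ± 0.29 at day 0 (adjusted p = 0.448), 1.21 ± 0.29 at day 10 (adjusted p = 0.0704), 1.31 ± 0.28 at day 15 (adjusted p = 0.0676) and 1.15 ± 0.29 at day 21 (adjusted p = 0.11). Within batch 18 the differences at days 0, 10, 15 and 21 were -0.16, 1.99, 1.39 and 1.83. Within batch 19 they were 0.85, 1.22, 1.22 and 0.44. Within batch 21, the one with next to no Xist in either genotype, they were 0.53, 0.39, 1.31 and 1.19. A test of whether the difference changed with day did not pass (edgeR, adjusted p = 1), and it called 0% of all genes, with 99 at an unadjusted p under 0.05.

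Summed over the 4 days of each culture, 0 of 5 members passed without a block, with 0% of 18387 genes called, and Loxl4 differed by 1.07 ± 0.61 (adjusted p = 1), a value that ranged from 0.63 to 1.71 when a culture or a batch was left out. With the batch as a block, Loxl4 passed and was the only member to do so. It was higher in HBM by 1.10 ± 0.09 on the log2 scale, or 2.15-fold, with an adjusted p of 0.0492, and was higher in 3 of 3 batches; 0.196% of genes were called, 0.125% as higher. This call was narrow. Without robust estimation in the same blocked model the adjusted p was 0.0625. It was 0.0865 without batch 19, 0.0296 without batch 21 and 0.000588 without batch 18 (0.108%, 0.361% and 3.5% of genes called). The log2 differences ran from 0.98 to 1.21. Few summed libraries remain when a batch is left out, so these p values rest largely on a spread estimated over all genes. Summing days 10 to 21 alone gave 1.275 ± 0.17 with the block (adjusted p = 0.0508). Leaving out batch 18 also brought Loxl2 past the threshold, at 0.45 ± 0.09 (adjusted p = 0.0283), under the setting that called 3.5% of genes. DESeq2 called 0 members and 26 genes (0.132%), with an adjusted p of 1 for Loxl4.

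Of the 7 osteoblast markers, 0 were called between the genotypes on any day without a block, where 0% of all genes were called. Their median log2 difference, HBM over WT, was -0.09, 1.25, 0.93 and 0.79 on days 0, 10, 15 and 21. Over all genes it was -0.04, 0.00, -0.01 and -0.01. In the paired fit 4 of these markers were higher in HBM at day 10 (Sp7, Bglap, Ibsp and Col1a1), where 1.29% of all genes were called. At day 15 there were 2 (Sp7 and Col1a1, with 0.307% of genes called) and at day 21 there was 1 (Col1a1, with 0.247%). With 1 batch term shared by all days, 0 genes were called on any day. The part of these markers in the Loxl4 difference was not tested. In human cancer cells LOX, LOXL2 and LOXL4 are known targets of hypoxia. Of the 12 hypoxia-inducible genes listed, 0 were called on any day when no block was used, where 0% of all genes were called. Their median log2 difference, HBM over WT, was 0.03, 0.60, 0.70 and 0.41 on days 0, 10, 15 and 21. P4ha1 and Ankrd37 were higher in HBM at day 10 by the paired fit (1.29% of genes called), which called 0 of the list on the other days. At day 10 P4ha1 averaged 597 ± 491 CPM in HBM and 193 ± 68.3 CPM in WT. Ankrd37 was low, at 3.02 ± 3.97 CPM in HBM and 0.458 ± 0.684 CPM in WT. The genotypes overlapped for both genes. The part of hypoxia in the Loxl4 difference was not tested either.

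At day 21 Loxl2 stood at 316, 299.9 and 382 CPM in HBM cultures, against 264, 212 and 203 CPM in WT cultures. No WT library reached the lowest HBM library, which was so for 4.29% of all genes that day. The log2 difference was 0.56 ± 0.24 (adjusted p = 1), and 0.56 ± 0.19 in the paired fit (adjusted p = 0.215). At day 15 HBM cultures had 306, 366 and 386 CPM and WT cultures 309, 208 and 207 CPM, so batch 18 showed no difference and the others did. Loxl3 had 281, 167 and 214 CPM in HBM and 192, 139.9 and 161 CPM in WT at day 21, higher in HBM in 3 of 3 batches, with 0.41 ± 0.09 in the paired fit (adjusted p = 0.076).

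Neither Lox nor Loxl1 passed the genotype test on any day. The log2 difference of Lox, HBM over WT, lay between 0.13 ± 0.32 at day 10 and 0.34 ± 0.32 at day 21, with adjusted p values of 0.944 to 1. In the paired fit it lay between 0.15 ± 0.16 at day 10 and 0.37 ± 0.16 at day 21, with adjusted p values of 0.309 to 0.717. The log2 difference of Loxl1 lay between -0.10 ± 0.37 at day 0 and 0.04 ± 0.37 at day 10, and its paired values between -0.05 ± 0.12 and 0.08 ± 0.12. In batch 19 at day 0 Lox was at 1719 CPM in HBM and 969.8 CPM in the WT library with high Col2a1. Without that WT library the day 0 log2 difference of Lox was 0.04 rather than 0.27.

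The family was then set beside its main substrate. Per kb, the 5 members together summed to 744 ± 95.0, 494 ± 77.4, 565 ± 86.1 and 521 ± 97.8 CPM in HBM at days 0, 10, 15 and 21, and to 688 ± 131, 446 ± 95.6, 469 ± 118 and 405 ± 120.1 CPM in WT (SD, n = 3). Col1a1 and Col1a2 encode the chains of collagen I, and together they summed to 4746 to 7146 CPM per kb in HBM and 3733 to 6608 in WT at day 0, and to 8931 to 24718 in HBM and 4865 to 12871 in WT at the later days. Lysyl oxidase mRNA per 1000 of collagen I mRNA was therefore 134 ± 16.9 in HBM and 142 ± 33.5 in WT at day 0. At day 10 it was 35.9 ± 8.83 in HBM and 50.5 ± 3.79 in WT, at day 15 33.7 ± 11.1 in HBM and 52.8 ± 18.1 in WT, and at day 21 31.6 ± 7.11 in HBM and 41.3 ± 10.6 in WT. Every later library, at 24.9 to 46.1 in HBM and 29.2 to 72.3 in WT, lay below every day 0 library, the lowest of which was 119 in HBM and 107 in WT. At day 10 no HBM library reached the lowest WT library, and at days 15 and 21 the genotypes overlapped. Within batches the HBM library was below the WT library in 9 of 9 pairs at days 10 to 21 and in 2 of 3 at day 0. This difference was not tested, and the 9 pairs come from 3 batches.

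**Figure D4:**
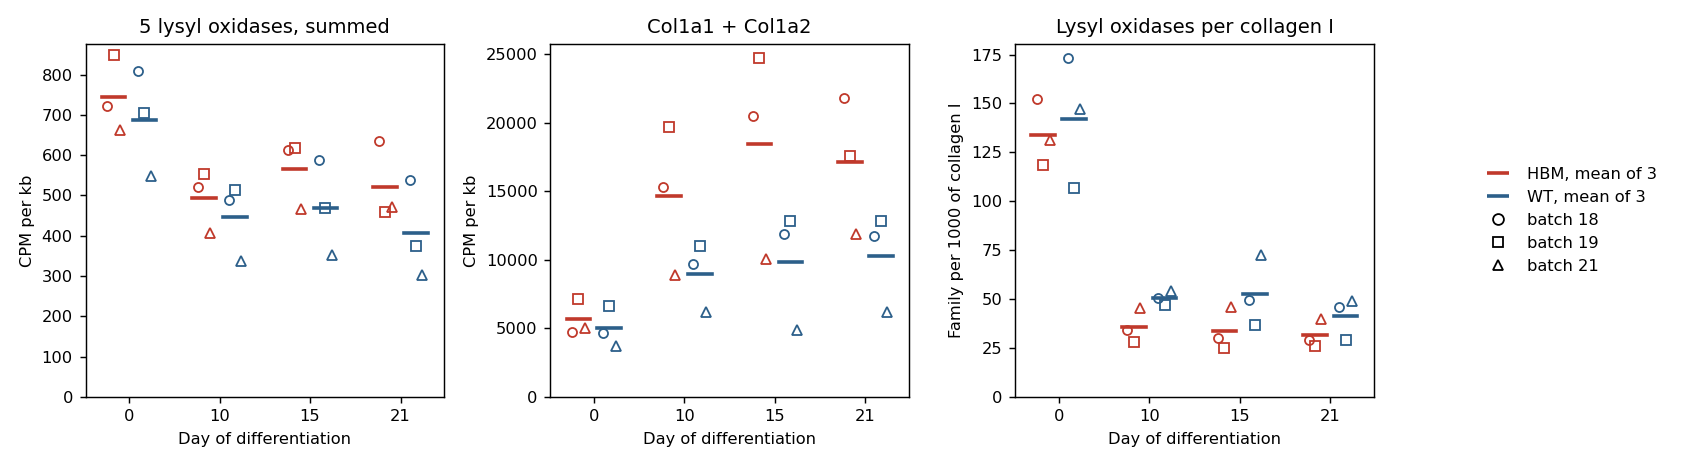
Summed level of the 5 lysyl oxidase genes (left, CPM per kb), summed level of Col1a1 and Col1a2 (middle, CPM per kb) and the family per 1000 of collagen I (right), each from 0, against day. Points are libraries with a symbol per batch, HBM in red left of WT in blue, and bars are means of 3. The lowest ratio at day 0 is 107 and the highest at the later days is 72.3.

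Substrate genes that passed the test rose while Loxl2 and Loxl3 fell. Of the 10 substrate genes listed, 4 rose and 0 fell between day 0 and day 10 in HBM, and 2 rose and 0 fell in WT, with median log2 changes of 0.41 in HBM and 0.61 in WT. Over all genes 14.1% rose and 12.4% fell in HBM, and 12.1% rose and 14% fell in WT, so the WT count was near that share. Col1a1 averaged 68074 ± 23648 CPM at day 10 and 27009 ± 6729 at day 0 in HBM, a log2 change of 1.33 ± 0.42 (adjusted p = 0.0248). In WT it averaged 41150.2 ± 10533 CPM at day 10 and 24415 ± 7709 at day 0, a log2 change of 0.75 ± 0.41 (adjusted p = 0.186). Col1a2 changed by 1.48 ± 0.46 in HBM (adjusted p = 0.0243) and 1.07 ± 0.46 in WT (adjusted p = 0.0907). Both chains passed in WT with the culture as a block (Col1a1 adjusted p = 0.0136, Col1a2 adjusted p = 0.00302), under which 4 substrates rose and 1 fell in each genotype. Under this block 20.5% of all genes rose and 17.7% fell in HBM, and 19.6% rose and 18.8% fell in WT.

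Col3a1, the collagen that forms mixed fibrils with collagen I in soft tissue, and Eln, the elastin precursor, rose in both genotypes. Col3a1 rose by 1.26 ± 0.34 in HBM (adjusted p = 0.0114) and 1.08 ± 0.34 in WT (adjusted p = 0.0246). Eln averaged 383 ± 307 CPM at day 10 and 10.8 ± 6.67 at day 0 in HBM, and 333 ± 241 CPM at day 10 and 17.3 ± 13.2 at day 0 in WT. Its log2 change was 5.15 ± 1.20 in HBM (adjusted p = 0.00464) and 4.27 ± 1.15 in WT (adjusted p = 0.0113). The difference of the 2 changes between the genotypes was called for 0 of the 10 substrates.

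**Figure D5:**
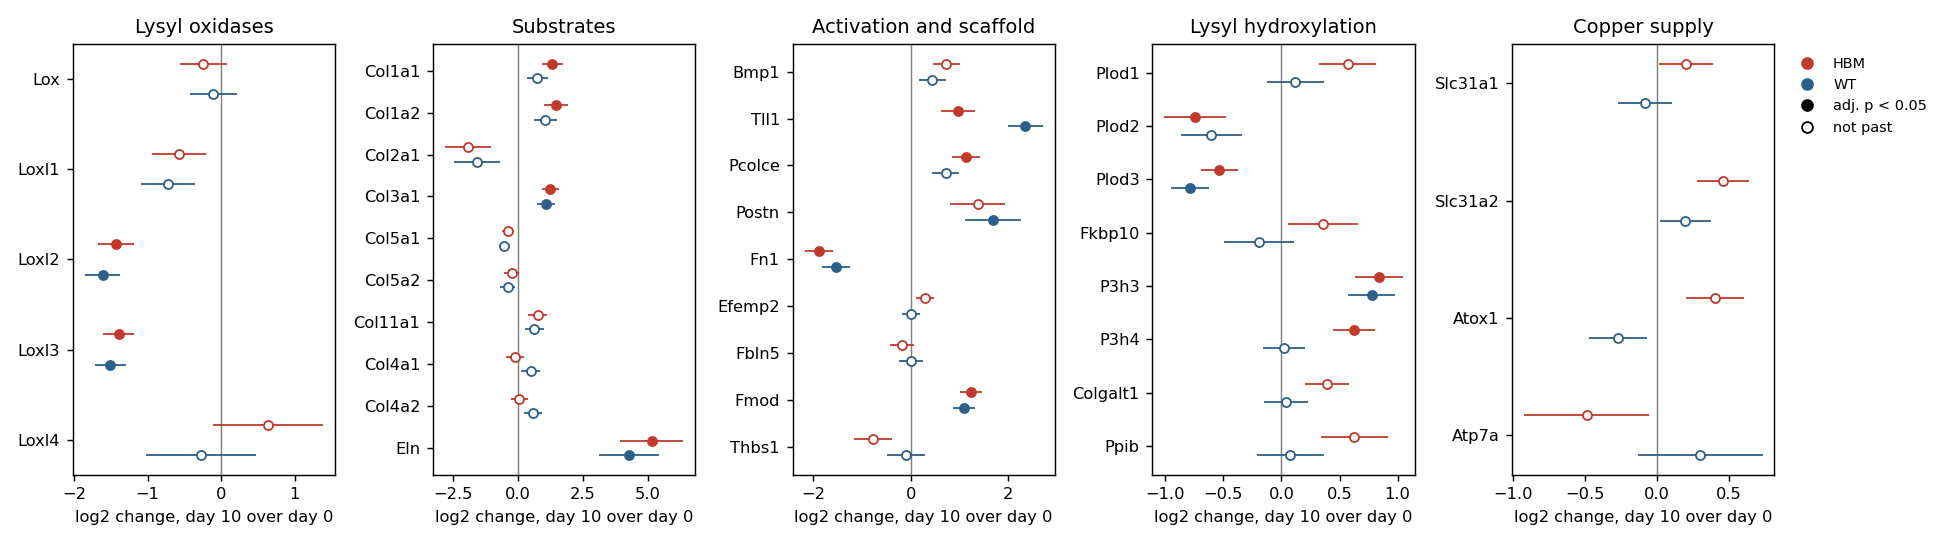
Log2 change between day 0 and day 10 (x axis, scaled per panel) for the lysyl oxidases and for genes of their substrates, activation, lysyl hydroxylation and copper supply. Points are edgeR estimates with bars of 1 SE, HBM in red above WT in blue, filled where the adjusted p is under 0.05. Loxl2 and Loxl3 lie near -1.5 in both genotypes, and Fn1 is lowered in both.

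Of the genes that process lysyl oxidases or hold them in the matrix, 3 rose and 1 fell in each genotype among 9 tested of 10 listed. Over all genes 14.1% rose and 12.4% fell in HBM, and 12.1% and 14% in WT. The median log2 change of the group was 0.73 in HBM and 0.44 in WT. In HBM Fn1 fell by 1.89 ± 0.29 (adjusted p = 0.000241), while Fmod rose by 1.25 ± 0.23 (adjusted p = 0.000911), Pcolce by 1.14 ± 0.29 (adjusted p = 0.00757) and Tll1 by 0.98 ± 0.35 (adjusted p = 0.0442). In WT Fn1 fell by 1.54 ± 0.29 (adjusted p = 0.00107), while Tll1 rose by 2.36 ± 0.36 (adjusted p = 0.000216), Fmod by 1.09 ± 0.23 (adjusted p = 0.00229) and Postn by 1.69 ± 0.57 (adjusted p = 0.0362). Fn1 encodes fibronectin, on which Lox is activated, Fmod the fibril-binding proteoglycan fibromodulin, Pcolce the enhancer of procollagen C-proteinase, Tll1 a relative of Bmp1 and Postn periostin, which brings Bmp1 to the matrix. Bmp1 averaged 422 ± 121 CPM at day 10 and 254 ± 15.2 at day 0 in HBM, and 344 ± 95.3 CPM at day 10 and 253 ± 25.7 at day 0 in WT. Its log2 change was 0.73 ± 0.29 in HBM (adjusted p = 0.065) and 0.44 ± 0.28 in WT (adjusted p = 0.26), and with the culture as a block it passed in HBM (adjusted p = 0.00558). With that block 5 genes of this group rose and 2 fell in HBM, and 4 rose and 1 fell in WT. The all-gene shares were then 20.5% higher and 17.7% lower in HBM, and 19.6% and 18.8% in WT.

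Lysyl hydroxylases act on the same side chains inside the cell and set the kind of cross-link that lysyl oxidases later make. Of 8 genes of this group, 2 rose and 2 fell in HBM, and 1 rose and 1 fell in WT, with median log2 changes of 0.48 in HBM and 0.03 in WT. The WT counts were near the all-gene shares of 12.1% higher and 14% lower, and those of HBM stood beside 14.1% and 12.4%. Under the culture block 5 of the 8 rose and 2 fell in HBM, and 1 rose and 1 fell in WT. The all-gene shares under that block were 20.5% higher and 17.7% lower in HBM, and 19.6% and 18.8% in WT. Plod3 fell in both, by 0.53 ± 0.16 in HBM (adjusted p = 0.0215) and by 0.79 ± 0.16 in WT (adjusted p = 0.00205). P3h3, a partner of the helical lysyl hydroxylase complex, rose in both, by 0.84 ± 0.21 in HBM (adjusted p = 0.00635) and 0.78 ± 0.21 in WT (adjusted p = 0.0102). P3h4, another partner, rose by 0.62 ± 0.18 in HBM (adjusted p = 0.0173). Plod2, the hydroxylase of the telopeptides where lysyl oxidases act, averaged 103 ± 12.5 CPM at day 10 and 172 ± 47.7 at day 0 in HBM, a log2 change of -0.74 ± 0.26 (adjusted p = 0.0438). In WT it averaged 109.7 ± 3.99 CPM at day 10 and 167 ± 60.2 at day 0, a log2 change of -0.60 ± 0.26 (adjusted p = 0.0963).

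Of the 5 genes of copper supply, 4 were tested and 0 were called between day 0 and day 10 in either genotype, with median log2 changes of 0.30 in HBM and 0.06 in WT. Under the culture block 1 of them rose in HBM, the transporter gene Slc31a2 (log2 change 0.46, adjusted p = 0.00661), and 0 rose in WT. That block called 20.5% of all genes as higher in HBM and 19.6% in WT. Of 12 hypoxia-inducible genes, 2 rose and 2 fell in HBM and 1 rose and 2 fell in WT, near the all-gene shares of 14.1% higher and 12.4% lower in HBM and 12.1% and 14% in WT. Adm and Slc2a1 fell and Ndrg1 rose in both genotypes, and P4ha2 rose in HBM. Under the culture block the number that fell was 3 in HBM and 5 in WT, where 17.7% and 18.8% of all genes fell. Among 10 genes of the response to TGF-beta, 1 rose and 3 fell in HBM and 1 rose and 6 fell in WT, with median log2 changes of -0.81 in HBM and -0.96 in WT. Against the all-gene shares that fell of 12.4% in HBM and 14% in WT, these are 3 and 6 of 10. With the culture as a block 5 fell in HBM and 7 in WT, where 17.7% and 18.8% of all genes fell. Smad7 fell by 1.20 ± 0.25 in both (adjusted p = 0.00226 in HBM and 0.00227 in WT), and Skil by 1.35 ± 0.31 in HBM (adjusted p = 0.00452) and 1.06 ± 0.31 in WT (adjusted p = 0.0185). The ligand gene Tgfb1 rose by 2.06 ± 0.27 in HBM (adjusted p = 5.92e-05) and 1.48 ± 0.26 in WT (adjusted p = 0.000663).

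The genes whose log2 CPM most resembled each member over the 24 libraries were found among 9449 genes with a mean of at least 10 CPM, as a description of libraries that share day, culture and depth. For Loxl2 they were Bysl, Tjap1 and Iffo2 (Pearson r of 0.96, 0.95 and 0.95), and for Loxl3 Coq10b, Ccnyl1 and Ube2z (0.96, 0.95 and 0.95). All 6 had their highest means at day 0 in both genotypes. For Loxl1 they were Twist1, Nudt4 and Kctd17 (0.93, 0.91 and 0.90), also highest at day 0. Loxl4 was most like Myo1d, Galnt3 and Spata13 (0.95, 0.94 and 0.92). Galnt3, which adds O-linked sugars to the phosphate hormone Fgf23 among other proteins, averaged 4.79 CPM at day 0, 15.5 at day 10, 24.3 at day 15 and 29.1 at day 21 in HBM, and 4.83, 5.55, 9.87 and 13.7 CPM in WT on these days. Lox had the loosest matches, Rsrc1, Sh3kbp1 and 4931406P16Rik (0.85, 0.83 and 0.81).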

How the data were processed

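RNA selected for poly(A) was sequenced from 24 osteoblast libraries. The authors deposited 1 table of raw read counts per gene. Its values are whole numbers whose sum differs between columns. According to the submitters' processing notes, the authors ran cutadapt 3.4, STAR 2.7.8a and featureCounts of Subread 2.0.1 on mm10. Neither the counting strand nor the gene annotation used is given in the sources used here. GENCODE M21 of mm10 supplied symbols, loci and exonic lengths for 54164 of the 54232 rows.

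edgeR 4.0.16 (R 4.3.3) turned these counts into CPM with TMM scaling (factors 0.866 to 1.11) and ran robust quasi-likelihood tests. Its filter on low counts kept 16592 genes, or 18387 for counts summed by culture. P-values were adjusted by Benjamini-Hochberg over all genes kept, and the threshold was 0.05. A single model of the 8 groups held all libraries and had no term for the culture. Repeated days of a culture are not independent, yet each entered this model as a separate library. Only the culture block and the counts summed by culture take account of this. Each SE is the log2 value divided by the square root of its F statistic. DESeq2 1.42.0 served as an alternative. CPM per kb divides CPM by exonic length, and likeness is Pearson r of log2 CPM with a prior count of 2. There are no molecular identifiers, and errors rest on the spread between cultures (biological coefficient of variation 0.327, and 0.131 when paired).

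HBM and WT libraries that share a batch number on a day deviated together, with correlations across genes of 0.542 to 0.815, and libraries of different numbers reached 0.127 at most. The deviations were taken from means of 3 libraries, so high values for shared numbers push those for different numbers down. The numbers were taken to pair the cultures because of the shared-number correlations and the batch tag of the labels. Blocks were a batch term per day (the paired fit), the culture for changes with time, and the batch for summed counts. The labels do not state outright that a number is 1 culture on all days.

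Members and gene lists were chosen with earlier results of these data known. The text names the members, the 3 genes most like each, up to 4 genes per list past the threshold with the smallest p, and always Col1a1, Col1a2, Bmp1 and Plod2. One gene that this rule names is not reported here. The fits were tested on simulated counts. Alternatives were another scaling, no filter, models of the compared groups alone, blocks, DESeq2, and leaving out libraries or batches. Chosen after seeing the data were summing days 10 to 21 with a block, dropping the robust step, and leaving out a batch under the block.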

Additional observations from a re-analysis of the deposited data

How the results depend on the processing

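The fall of Loxl2 and Loxl3 between day 0 and day 10 stayed past the threshold in 56 of 56 alternatives over both genotypes, with log2 changes from -1.76 to -1.13 and adjusted p values up to 0.0354. The number of members called changed in 3 comparisons, each time with the block. For day 10 against day 0 it was 2 without a block and 3 with it in HBM and in WT, where Loxl1 was added. For HBM against WT over all days it was 0 without a block, also when a library or a batch was left out (0 to 0), and 1 (Loxl4) with the batch as a block. With the block it was 2 without batch 18 (Loxl4 and Loxl2), 0 without batch 19 and 1 without batch 21; the cause was not tested. The pairing rests on shared batch numbers, and with all batches in, the block changed the call of no other member.

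Some counts over all genes moved by more than 1.5 times. Over all days 0 genes were called without a block, 36 with it, 26 by DESeq2 and 509 for days 10 to 21 with the block. Within the block the count was 648 without batch 18, 20 without batch 19, 67 without batch 21 and 0 without the robust step. With 1 batch term shared by all days, 0 genes differed between genotypes on any day. For day 10 against day 0, the counts of 4403 in HBM and 4333 in WT became 1053 and 786 without batch 18, 2642 and 2254 without batch 19, and 2045 and 443 in a model of the compared groups alone. They were 2805 in HBM without the HBM day 0 library of batch 18 and 2864 in WT without the WT day 10 library of batch 19.

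No value that reversed was past the threshold. The HBM over WT difference of Loxl1 turned positive at day 15 under the block (0.0095, and 0.0057 with 1 batch term). Over all days it was 0.016 under the block with or without the robust step, 0.0016 with no filter, 0.034 for days 10 to 21, 0.055 for those days with the block, and with the block 0.073 without batch 18 and 0.043 without batch 19. Other signs depended on single libraries or batches. When these were left out, the day 0 genotype difference ranged from -0.36 to 0.20 for Loxl1, -0.22 to 0.32 for Loxl2 and -0.28 to 0.094 for Loxl3. At day 10 it ranged from -0.083 to 0.33 for Lox, -0.28 to 0.34 for Loxl1 and -0.055 to 0.060 for Loxl3. For Loxl1 it ranged from -0.31 to 0.36 at day 15, -0.17 to 0.40 at day 21 and -0.21 to 0.23 over all days. The change from day 0 to day 10 ranged from -0.090 to 1.08 for Loxl4 in HBM, and in WT from -0.53 to 0.34 for Lox and -1.20 to 0.24 for Loxl4. That between day 21 and day 10 ranged in HBM from -0.17 to 0.29 for Lox, -0.41 to 0.081 for Loxl1 and -0.063 to 0.18 for Loxl2, and in WT from -0.46 to 0.11 for Lox and -0.58 to 0.080 for Loxl1. The difference between genotypes in the day 0 to day 10 change ranged from -0.58 to 0.15 for Lox, -0.17 to 0.44 for Loxl1, -0.060 to 0.48 for Loxl2 and -0.093 to 0.28 for Loxl3.

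The genotype difference of Loxl4 kept its sign but ranged widely when single libraries or batches were left out, at 0.59 to 2.20 at day 10, 0.58 to 2.09 at day 15 and 0.61 to 1.83 at day 21. Loxl4, the member with the fewest reads, had at least 485 counts in every library. At days 10, 15 and 21, cultures of the same genotype differed most in Loxl4 relative to its mean.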
